A study of Mus musculus with 6 samples.

Results

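The genes described here are the transcription factor heptad of blood stem cells (Runx1, Gata2, Tal1, Lyl1, Lmo2, Erg and Fli1) and 3 factors that work beside it (Myb, Mecom and Hlf). They were chosen by symbol, all 10 were found among the 51912 genes listed in each count file, and all 10 passed the filter on low counts that left 12668 genes for testing. Levels were measured by RNA-seq in GFP-positive cells from the aorta-gonad-mesonephros region (AGM) of MacGreen mouse embryos at day E10.5. In MacGreen mice the Csf1r promoter drives EGFP, so the reporter marks macrophages and also some of their precursors, and it does not by itself separate them. Green cells were sorted by surface CD206, the mannose receptor, into GFP+CD206- cells (CD206neg, 3 libraries) and GFP+CD206+ cells (CD206pos, 3 libraries). The embryos came from 3 independent litters and each library pooled 3 to 5 AGM. The number in each sample title was read as the litter, which gives 1 library of each population per litter, although no label says so directly. All cells carried the same transgene and no treatment was applied.

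In blood stem and progenitor cells the heptad factors bind together at shared enhancers, and several of them sustain each other's expression. Tal1 and Lyl1 are related basic helix-loop-helix factors that bind DNA with E proteins. Lmo2 is a LIM-only protein without DNA binding of its own that joins them to Gata factors through Ldb1. Runx1 is needed for blood cells to arise from haemogenic endothelium in the AGM, Erg and Fli1 are related ETS factors of endothelium and blood, and Gata2 is required for the first stem cells. Myb maintains definitive progenitors and is dispensable for macrophages of yolk sac origin, Mecom supports stem cell self-renewal, and Hlf is a PAR bZIP factor used as a marker of stem cells. Some of these factors, among them Runx1, Fli1 and Lyl1, are also used in mature myeloid cells.

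RefSeq promoter sequences (GRCm38.p6) were at hand for 8 of the 10 genes, in 14 windows of 250 bases before a start, some genes having several starts. The 5 windows below are shown because 3 of their genes (Gata2, Myb and Erg) fell in CD206pos cells and the others (Tal1 and Lyl1) were at overlapping levels in both populations. Each is written 5′ to 3′ on the strand of its gene, and capitals mark GATAA or GGAAG, or their reverse complements, the core letters of GATA and ETS motifs. The Gata2 window is chr6:88193641-88193890 (plus strand), the Myb window chr10:21160985-21161234 (minus strand), the Erg window chr16:95459349-95459598 (minus strand, the most downstream of 3 starts), the Tal1 window chr4:115056176-115056425 (plus strand) and the Lyl1 window chr8:84701207-84701456 (plus strand).
Gata2: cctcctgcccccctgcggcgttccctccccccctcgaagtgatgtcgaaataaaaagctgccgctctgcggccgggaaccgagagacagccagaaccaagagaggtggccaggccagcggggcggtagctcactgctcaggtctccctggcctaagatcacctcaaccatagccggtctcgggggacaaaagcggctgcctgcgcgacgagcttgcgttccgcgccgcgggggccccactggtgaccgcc
Myb: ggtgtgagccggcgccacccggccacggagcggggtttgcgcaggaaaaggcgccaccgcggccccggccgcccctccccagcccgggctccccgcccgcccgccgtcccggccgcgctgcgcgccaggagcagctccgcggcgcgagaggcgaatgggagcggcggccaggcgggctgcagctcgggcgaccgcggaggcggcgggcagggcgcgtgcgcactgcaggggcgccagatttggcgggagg
Erg: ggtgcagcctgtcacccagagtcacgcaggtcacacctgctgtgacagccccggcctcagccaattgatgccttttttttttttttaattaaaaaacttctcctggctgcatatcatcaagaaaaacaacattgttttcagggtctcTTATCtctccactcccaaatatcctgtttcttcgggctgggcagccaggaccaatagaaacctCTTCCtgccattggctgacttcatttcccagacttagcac
Tal1: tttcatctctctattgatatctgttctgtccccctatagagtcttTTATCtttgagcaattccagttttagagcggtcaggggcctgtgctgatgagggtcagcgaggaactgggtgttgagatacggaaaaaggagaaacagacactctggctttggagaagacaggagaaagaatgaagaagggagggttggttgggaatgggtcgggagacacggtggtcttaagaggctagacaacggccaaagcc
Lyl1: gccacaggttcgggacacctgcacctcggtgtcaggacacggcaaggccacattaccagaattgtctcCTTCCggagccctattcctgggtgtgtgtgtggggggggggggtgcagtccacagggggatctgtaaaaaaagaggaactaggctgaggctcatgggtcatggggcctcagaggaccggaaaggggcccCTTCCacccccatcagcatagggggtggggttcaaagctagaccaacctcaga
The Gata2 and Myb windows shown hold neither motif, the Erg window holds 1 of each, the Tal1 window 1 GATAA match and the Lyl1 window 2 GGAAG matches. Gata2, Tal1 and Erg also have windows that are not shown. The other Tal1 window holds 0 GATAA and 1 GGAAG, and the other Gata2 window 0 of both. The other Erg windows hold 0 GATAA, with 1 and 0 GGAAG. Searched on both strands, with overlapping matches counted, GATAA occurred in 4 of the 14 windows (22.6% of 32851 windows of all genes) and GGAAG in 7 (64.1%). The E-box CANNTG occurred in 5 windows (66.2% of all) and the MYB core AACNG in 8 (74.2%). The RUNX core TGTGGT (14% of all) and the HLF core TTANGTAA (2.06% of all) occurred in 0. A match is a description of letters in these windows only.

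The 6 libraries held between 16730846 and 18214283 reads in genes, so 3 reads stand for 0.16 to 0.18 CPM (counts scaled to library size). Levels are CPM scaled by TMM (trimmed mean of M values) unless stated, mean ± SD of 3 libraries (n = 3), and a negative log2 fold change means a lower level in CD206pos. Csf1r was high in both populations, at 1600 and 2284 CPM, and Mrc1, which encodes the sorted antigen, went from 93.9 ± 36.8 CPM in CD206neg to 1585 ± 181 CPM in CD206pos. CD206neg libraries also held genes of blood progenitors, and both libraries of litter 3 held more stromal and epithelial marker RNA (107.9 and 69.5 CPM summed over 9 markers) than the other libraries (3.79 to 20.4 CPM).

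The comparison asked which stem cell factors separate the populations. Gata2, Erg and Myb fell in CD206pos, to near 0 for Gata2 and Erg. Runx1, Tal1, Lyl1 and Fli1 had overlapping levels in both populations. Lmo2, Mecom and Hlf were lower in each CD206pos library than in any CD206neg library and did not pass the test. In edgeR's quasi-likelihood test (Benjamini-Hochberg adjusted p under 0.05 over all tested genes) 3 of the 10 genes were called, all lower, where 1.90% of all tested genes were called lower, 2.97% higher and 4.87% in either direction. With library totals as the only scaling the whole table had 273 higher and 284 lower calls, against 376 and 241 with TMM. For 6 of the 10 the groups did not overlap, with CD206pos lower, as for 11.8% of all tested genes. The median log2 fold change of the 10 was -2.08, beside -0.0043 over all tested genes. Gata2, Erg, Mecom and Hlf had too few CD206pos reads to pass the low-count filter without CD206neg. A gene with so few CD206pos reads can enter the test only if it is higher in CD206neg. The counts and the median above include Gata2, Erg, Mecom and Hlf and are descriptions only. The same limit holds for the listed genes below that had 0 or few reads in CD206pos. The list counts and medians that include them are descriptions only. DESeq2 called 5 of the 10, all lower (4.34% of all), limma-voom 2, both lower (2.23% of all), edgeR on library totals 4, all lower (2.24% of all), and edgeR with the litter as a block 3, all lower (2.11% of all).

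**Figure D1:**
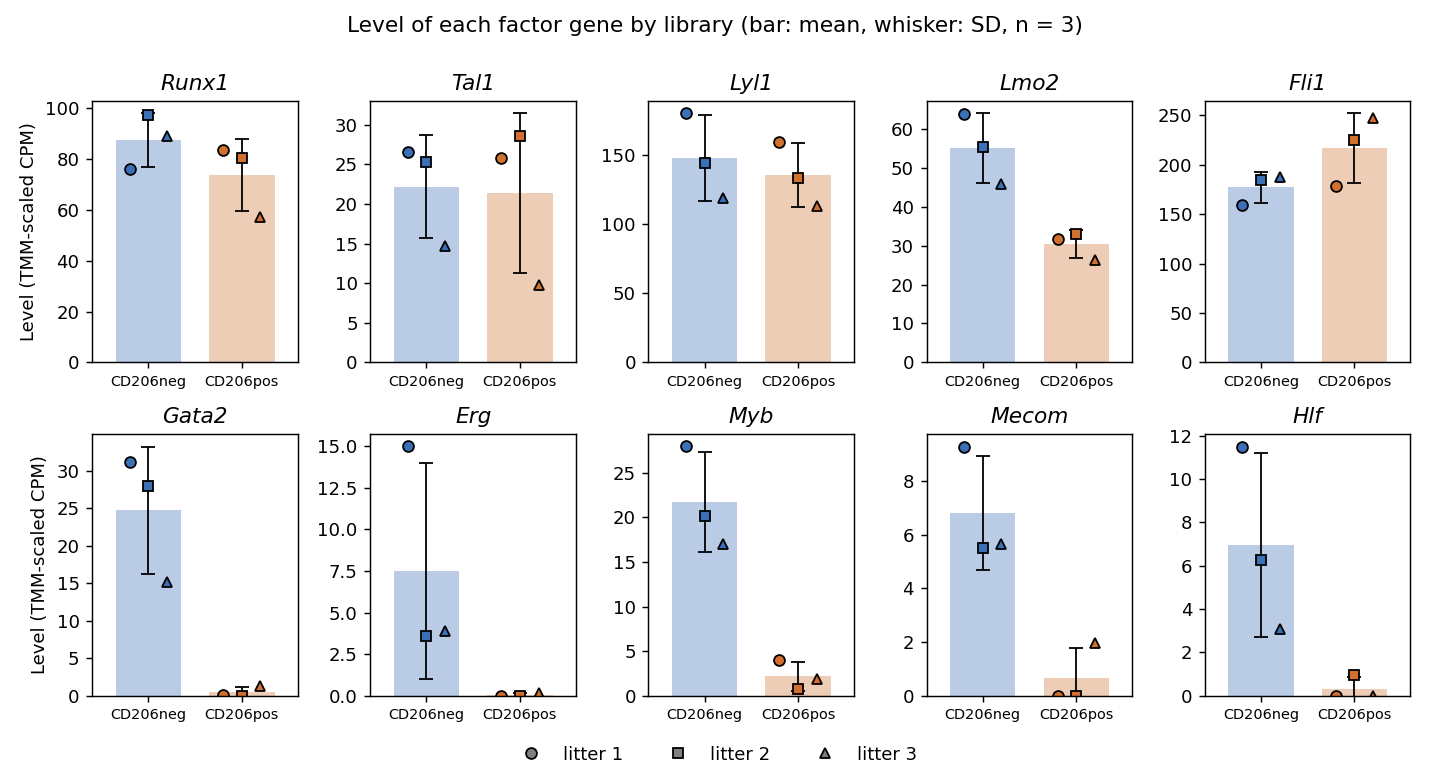
Level of each of the 10 factor genes in TMM-scaled CPM (vertical axes start at 0 and differ between panels) in CD206neg (blue) and CD206pos (orange) cells, where points are libraries by litter, bars means and whiskers SD (n = 3). The upper row shows the 5 genes with many reads in both populations. For Lmo2 in the upper row and for each gene in the lower row, every CD206pos library lies below every CD206neg library.

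Lyl1, a basic helix-loop-helix factor also expressed in myeloid cells, (chr8:84701457-84704715, plus strand; gene positions are those of the file headers' annotation, GRCm38) measured 180, 144 and 119 CPM in CD206neg litters 1, 2 and 3. Its CD206pos values, in the same litter order as all that follow, were 159.5, 133 and 113 CPM. The groups overlapped, litter 1 was highest and litter 3 lowest in both, and the log2 fold change was -0.13 ± 0.20 (SE; edgeR adjusted p = 0.83). Its relative Tal1, the initiator of the blood programme (chr4:115056426-115071755, plus strand), was at 26.6, 25.3 and 14.7 CPM in CD206neg and at 25.8, 28.5 and 9.83 CPM in CD206pos. The litter 3 library was the lowest of each population, so that Tal1 varied more between litters than between populations (log2 fold change -0.05 ± 0.42, SE; edgeR adjusted p = 0.98). The Tal1 direction turned when CD206neg replicate 1, CD206neg replicate 2 or CD206pos replicate 3 was left out (0.098, 0.052 and 0.26), and that of Lyl1 without CD206neg replicate 1 (0.041).

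Lmo2, the bridging protein of the complex (chr2:103957986-103981878, plus strand), was at 63.9, 55.4 and 45.9 CPM in CD206neg and at 31.7, 33.0 and 26.3 CPM in CD206pos. Every CD206pos library lay below every CD206neg library, and the ratio within a litter was 2.01, 1.68 and 1.74 for litters 1, 2 and 3. The log2 fold change of -0.86 ± 0.21 (SE) did not pass edgeR's test (adjusted p = 0.060). It passed with DESeq2 (adjusted p = 0.0058), with limma-voom (0.047), with library totals (0.043) and with the stricter filter on low counts (0.044), and over all alternatives the adjusted p lay between 0.0058 and 0.34.

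Runx1 (chr16:92601466-92826149, minus strand) was at 76.0, 97.1 and 89.0 CPM in CD206neg and at 83.3, 80.5 and 57.3 CPM in CD206pos. The ranges overlapped, CD206pos was higher in litter 1 and lower in litters 2 and 3, and the log2 fold change was -0.25 ± 0.20 (SE; edgeR adjusted p = 0.62). Fli1, the ETS factor with the most reads of the 10 genes in CD206pos (chr9:32422204-32542861, minus strand), was at 159, 185 and 188 CPM in CD206neg and at 178, 225 and 247 CPM in CD206pos. It was the only one of the 10 that was higher in CD206pos in every litter, by 1.12, 1.22 and 1.32-fold, but the groups overlapped and the log2 fold change of 0.29 ± 0.16 (SE) did not pass the test (edgeR adjusted p = 0.42, and 0.17 to 0.83 over the alternatives). A p above the threshold does not show that these 4 genes were equal in both populations.

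Gata2, the GATA factor of stem cells (chr6:88193891-88207032, plus strand), was counted 572, 483 and 269 times in CD206neg litters 1, 2 and 3 but only 1, 0 and 23 times in CD206pos. These reads correspond to 31.2, 28.0 and 15.2 CPM against 0.061, 0 and 1.33 CPM. Nearly all CD206pos reads came from litter 3, and even there the level was 11.4-fold below the CD206neg library of the same litter. Gata2 was 53.4-fold lower in CD206pos by the ratio of means, with a log2 fold change of -5.71 ± 1.08 (SE; edgeR adjusted p = 0.022). The call was lost with limma-voom (adjusted p = 0.067) and whenever CD206neg replicate 1, 2 or 3 or CD206pos replicate 1 or 2 was dropped (0.050 to 0.11), and without CD206pos replicate 3 the log2 fold change was -9.42.

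Erg, the ETS factor shared by endothelium and stem cells (chr16:95359169-95586593, minus strand), had 275, 62 and 69 reads in CD206neg and 0, 0 and 3 in CD206pos. The CD206neg library of litter 1 stood at 14.98 CPM, above 3.59 and 3.89 CPM in litters 2 and 3. With only 3 reads in CD206pos, the ratio of reads adjusted for depth was 129.6, with an exact binomial 95% interval of 44.0 to 631 that covers counting error only. Erg passed edgeR's test (log2 fold change -6.84 ± 1.31, SE; adjusted p = 0.023). Without CD206neg replicate 1 the log2 fold change was -5.84. The call was lost with limma-voom (adjusted p = 0.093) and when replicate 1 or replicate 2 of either population was dropped (0.061 to 0.16), and without CD206pos replicate 3 the log2 fold change was -10.04.

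Myb, the factor of definitive progenitors (chr10:21124935-21160984, minus strand), had reads in every library. It was at 27.9, 20.2 and 17.03 CPM in CD206neg and at 3.97, 0.74 and 1.85 CPM in CD206pos, which are 65, 13 and 32 reads. The populations did not overlap, and the fold within a litter was 7.03, 27.1 and 9.20. Myb was 9.91-fold lower in CD206pos by the ratio of means (log2 fold change -3.31 ± 0.59, SE; edgeR adjusted p = 0.017). The call was also made by DESeq2 and limma-voom, and dropping CD206neg replicate 1, CD206neg replicate 2 or CD206pos replicate 3 ended it in edgeR (0.065 to 0.082). Without CD206pos replicate 1, the CD206pos library with the most Myb reads, the log2 fold change was -4.06.

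Mecom, a zinc finger factor of stem cells (chr3:29951296-30548008, minus strand), was at 9.26, 5.502 and 5.64 CPM in CD206neg and had 0, 0 and 34 reads in CD206pos, the last being 1.97 CPM. Hlf (chr11:90336536-90390895, minus strand) was at 11.5, 6.26 and 3.10 CPM in CD206neg and had 0, 17 and 0 reads in CD206pos. In each case a single CD206pos library carried all CD206pos reads, from litter 3 for Mecom and from litter 2 for Hlf. Neither passed edgeR's test, with log2 fold changes of -3.36 ± 1.504 (SE; adjusted p = 0.29) and -4.38 ± 1.47 (SE; adjusted p = 0.16). Without CD206pos replicate 3 Mecom was called (log2 fold change -9.90, adjusted p = 0.014), and without CD206pos replicate 2 Hlf was called (-9.93, adjusted p = 0.038). DESeq2 called Hlf (adjusted p = 0.0092).

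**Figure D2:**
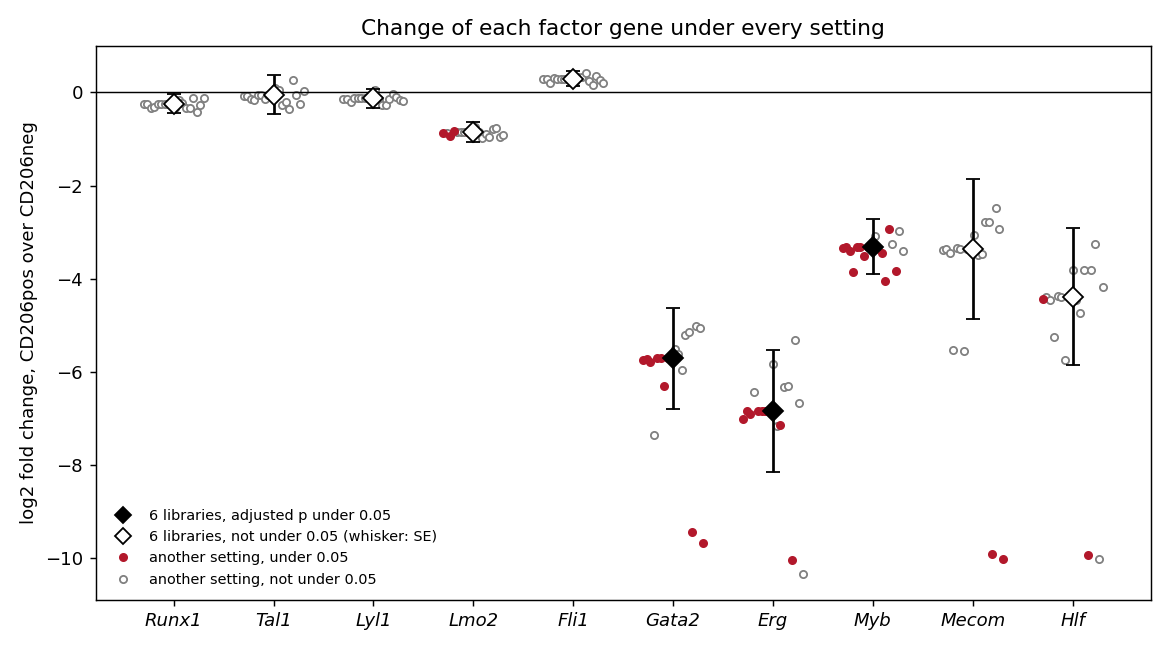
Log2 fold change (CD206pos over CD206neg, vertical axis) of each factor gene with all 6 libraries (diamonds, whiskers SE) and under every other setting or with libraries left out (circles, filled where the adjusted p was under 0.05). Runx1, Tal1, Lyl1 and Fli1 stay near 0, while Gata2, Erg, Mecom and Hlf move to between -9.42 and -10.34 where the only CD206pos library or libraries with reads above 1 are left out.

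The 5 genes with the lowest CD206pos levels (Gata2, Erg, Myb, Mecom and Hlf, grouped after their values were seen) took 15.8%, 11.1% and 8.95% of the reads of all 10 genes in CD206neg litters 1, 2 and 3. In CD206pos they took 0.84%, 0.34% and 1.16%. The summed level of the other 5 genes was 506, 507 and 456 CPM in CD206neg and 479, 500.5 and 454 CPM in CD206pos, and these ranges overlapped. In bulk samples fewer cells with a gene and less RNA per cell cannot be told apart.

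**Figure D3:**
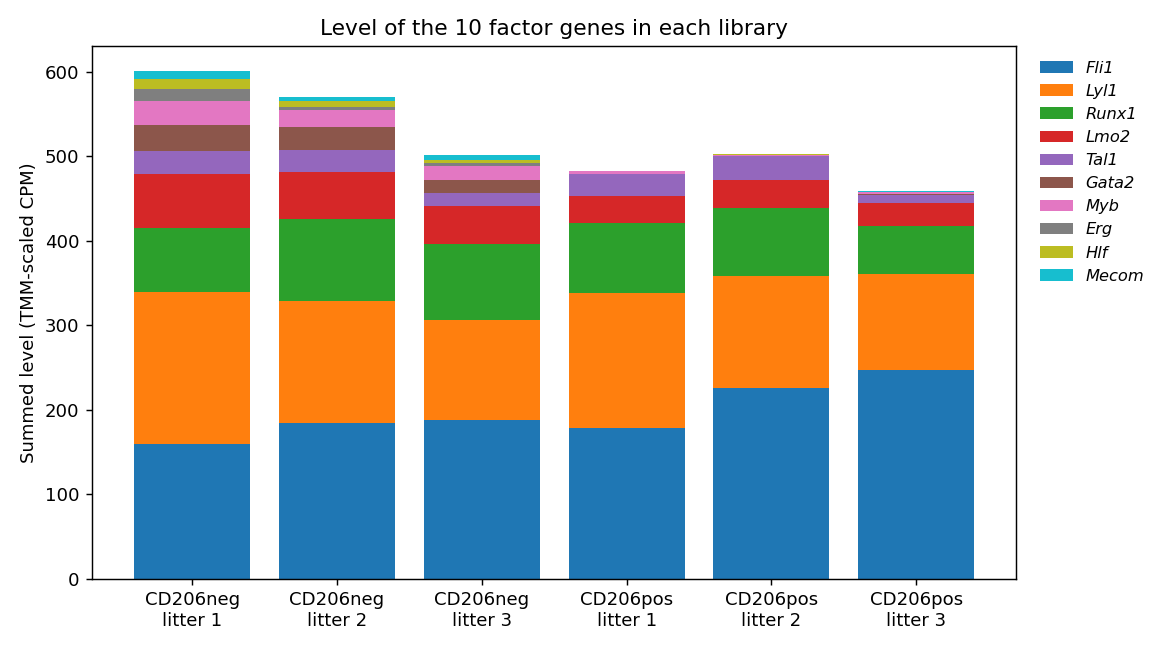
Summed level of the 10 factor genes in TMM-scaled CPM in each library (horizontal axis, population and litter), with 1 colour per gene. Fli1, Lyl1, Runx1, Lmo2 and Tal1 make up most of every bar, and the upper segments of Gata2, Myb, Erg, Hlf and Mecom are visible mainly in CD206neg.

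Within CD206neg, all 5 of these genes were highest in litter 1. The same library had the highest summed level of 13 endothelial markers (262 CPM, against 135 and 152 CPM in litters 2 and 3) and of 15 stem and progenitor surface genes (1471 CPM, against 1027 and 986 CPM). In CD206pos the litter 3 library held most of the Gata2, Erg and Mecom reads. The 13 endothelial markers summed to 61.6, 39.7 and 66.1 CPM in CD206pos litters 1, 2 and 3, so that litters 1 and 3 were close in sum. Egfl7, whose product endothelium secretes, made up most of the litter 1 sum, at 45.4, 27.7 and 28.3 CPM. Egfl7 and Flt4 were highest in litter 1. Cdh5, Cldn5, Kdr, Tek, Tie1, Emcn, Plvap and Ecscr were each highest in litter 3, and Sox18, Robo4 and Ptprb had 0 reads in CD206pos. Cdh5, the gene of the endothelial cadherin, was at 0, 0.11 and 1.45 CPM and Cldn5, of endothelial junctions, at 0, 0 and 9.66 CPM. Tie1, an endothelial receptor, was at 11.9, 6.65 and 12.0 CPM, close between litters 1 and 3. The part of endothelial or stromal cells in these values was not tested.

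Levels of different genes were compared per length, in RPKM (CPM divided by exon length in kilobases). In CD206neg the order was Lyl1 (82.1 ± 17.2 RPKM), Fli1 (50.8 ± 4.52), Lmo2 (25.4 ± 4.15) and Runx1 (7.39 ± 0.90), and the ranges of these 4 did not overlap. Runx1 also lay above Tal1 (5.07 ± 1.48 RPKM). From Tal1 downwards each gene overlapped its neighbour, through Gata2 (4.59 ± 1.57), Myb (2.43 ± 0.63), Erg (2.16 ± 1.87) and Hlf (1.04 ± 0.63) to Mecom (0.55 ± 0.17). In CD206pos Lyl1 (75.1 ± 12.9 RPKM) and Fli1 (62.2 ± 10.1) overlapped, Lmo2 stood at 14.0 ± 1.64, and Runx1 (6.23 ± 1.21) and Tal1 (4.88 ± 2.31) overlapped. A gap followed to Myb at 0.25 ± 0.18 RPKM, and Gata2, Mecom, Hlf and Erg were at 0.086 RPKM or less. Exon lengths are the union of all annotated exons, from 1800 bases for Lyl1 to 12427 for Mecom, so genes with long alternative ends read low on this scale.

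**Figure D4:**
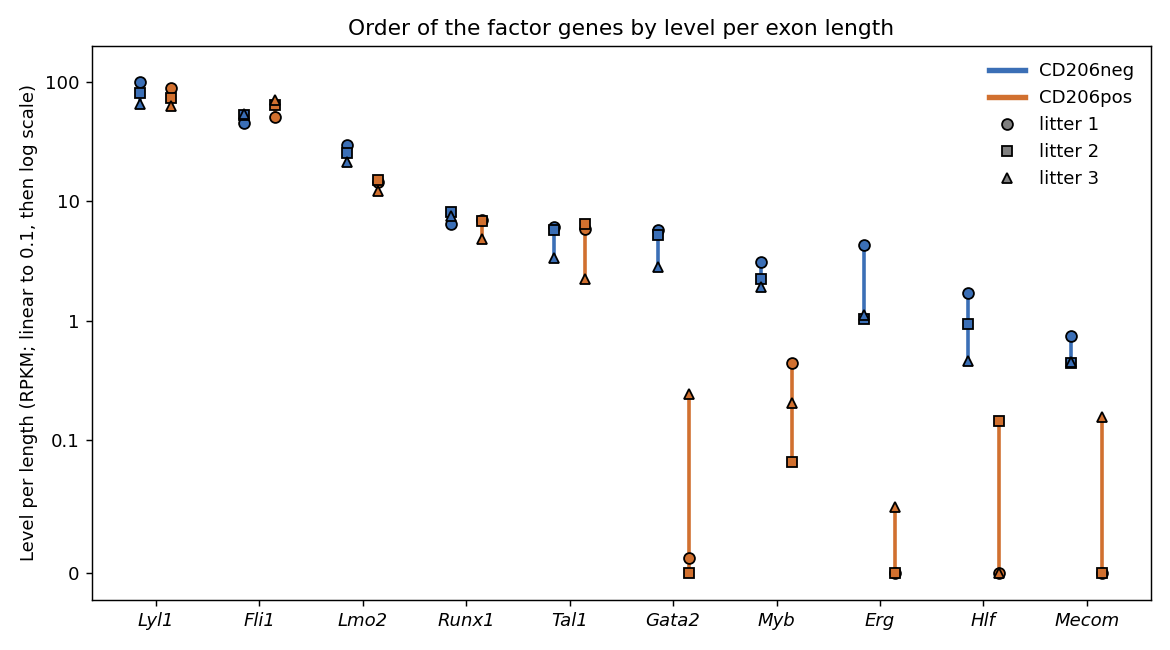
Level per exon length (RPKM, linear up to 0.1 and logarithmic above) of each factor gene, ordered by the CD206neg mean, with 1 point per library and lines over the range of CD206neg (blue) and CD206pos (orange) libraries. Lyl1, Fli1, Runx1 and Tal1 overlap between the populations, and Lmo2 is lower in CD206pos without overlap. The other 5 are also lower without overlap and lie below 0.5 RPKM in every CD206pos library. Mecom in CD206neg litters 2 and 3 and Hlf in CD206neg litter 3 lie below 0.5 RPKM as well.

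Related factors can stand in for each other, so each gene was set against its family on the same per-length scale. Tal1 made up 5.76% ± 0.93 of the Tal1 and Lyl1 level in CD206neg and 5.93% ± 2.33 in CD206pos, so Lyl1 carried most of it in both. Erg made up 8.65%, 1.92% and 2.04% of the Erg and Fli1 level in the CD206neg libraries and 0%, 0% and 0.071% in CD206pos. Runx1 made up 85.5% ± 1.73 of the Runx level in CD206neg and 97.8% ± 0.14 in CD206pos, without overlap. Its relatives Runx2 and Runx3, factors of bone and of lymphoid cells, were at 6.77 ± 2.83 and 2.47 ± 1.83 CPM in CD206neg and at 0.83 ± 0.73 and 0.23 ± 0.27 CPM in CD206pos, and neither passed edgeR's test (adjusted p = 0.21 and 0.24). Gata2 made up 60.1%, 61.5% and 68.2% of the Gata1, Gata2 and Gata3 level in CD206neg. In CD206pos the 3 Gata genes had 7, 0 and 57 reads in all, too few for a steady share. Gata1, the erythroid and megakaryocyte factor, had 0 reads in every CD206pos library against 4.54 ± 2.53 CPM in CD206neg, which is at least 77.4-fold lower when 3 counts are set over the CD206pos group (edgeR adjusted p = 0.020, and 0.056 with the litter as a block). That call also ended when CD206neg replicate 1 or 2 or CD206pos replicate 2 was dropped (up to 0.12). Myb made up 24.0% ± 2.96 of the Myb, Mybl1 and Mybl2 level in CD206neg and 4.58% ± 2.88 in CD206pos. The rest was almost all Mybl2, a cell cycle factor, at 35.5 ± 9.42 and 24.8 ± 8.85 CPM (edgeR adjusted p = 0.50).

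RNA of 14 genes was examined as a list of Ldb1 complex members and their relatives, E proteins and Cbfb. In edgeR 0 rose, 2 fell and 12 did not pass (median log2 fold change -0.28). In edgeR 4 had an unadjusted p under 0.05, while DESeq2 called 4 and limma-voom 3. Ldb1, the scaffold that Lmo2 binds, was at 12.1 ± 2.29 and 10.3 ± 2.49 CPM (edgeR adjusted p = 0.83), and Cbfb, the binding partner of Runx1, at 31.3 ± 5.45 and 31.0 ± 3.83 CPM (adjusted p = 0.99). The E protein gene Tcf3 was at 53.7 ± 15.2 and 36.2 ± 8.71 CPM (edgeR adjusted p = 0.34). Another E protein gene, Tcf4, was at 82.6 ± 19.9 and 151 ± 26.2 CPM without overlap (adjusted p = 0.067). The genes that fell were Ssbp2, whose product stabilises Ldb1, from 97.1 ± 14.0 to 50.4 ± 10.4 CPM (edgeR adjusted p = 0.042), and Lmo1, a relative of Lmo2, from 2.32 ± 1.26 CPM to 0 reads (adjusted p = 0.044, and 0.11 with the litter as a block). The Lmo1 call ended when any 1 library was dropped (adjusted p up to 0.18), and that of Ssbp2 with any but CD206pos replicate 3 (up to 0.15). Cbfa2t3, a corepressor of the complex, was at 26.8 ± 3.50 and 12.0 ± 2.58 CPM (adjusted p = 0.054).

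The Id proteins bind E proteins and keep them from pairing with Tal1 and Lyl1. Of 4 Id genes 1 rose, 1 fell, 1 did not pass and Id4 was below the filter. Id2 was at 28.4, 40.8 and 51.5 CPM in CD206neg and at 131, 113 and 137 CPM in CD206pos, 3.15-fold higher (edgeR adjusted p = 0.0066). Id1 went the other way, from 44.2, 41.8 and 50.7 CPM to 21.2, 9.05 and 16.4 CPM, 2.94-fold lower (edgeR adjusted p = 0.031). The groups did not overlap for either gene. The Id2 call ended without CD206neg replicate 2 (adjusted p = 0.052), and the Id1 call when any 1 library but CD206pos replicate 1 was dropped (up to 0.11). Of 13 chromatin cofactor genes, among them Kdm1a and Ep300, 0 were called by edgeR, DESeq2 or limma-voom and 1 had an unadjusted p under 0.05 in edgeR (median log2 fold change -0.32).

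Family relatives of the 10 genes gave 1 rise and 1 fall in edgeR among 14 tested (median log2 fold change -0.35). In edgeR 5 had an unadjusted p under 0.05, while DESeq2 called 4 and limma-voom 2. The riser in edgeR was Ets2, an ETS gene active in macrophages, from 90.1 ± 27.3 to 191 ± 11.4 CPM (edgeR adjusted p = 0.027), and the gene that fell was Gata1. The Ets2 call ended when any 1 library but CD206neg replicate 1 was dropped (adjusted p up to 0.14). Among other stem and lineage factors, 18 were tested in edgeR and 8 fell, 1 rose and 9 did not pass (median -1.46). An unadjusted p under 0.05 was seen in edgeR for 13, while DESeq2 called 12 and limma-voom 10. Gfi1b, a repressor of erythroid and megakaryocyte cells, had 0 reads in CD206pos and was at least 397-fold lower (edgeR adjusted p = 0.0011). Bcl11a, Nfe2 and Hoxa9, factors of lymphoid and erythroid progenitors and of stem cells, were 12.9-fold, 12.6-fold and 103-fold lower (edgeR adjusted p = 0.0014, 0.0048 and 0.0096). All 10 Hoxa9 reads in CD206pos came from litter 2, and without that library its log2 fold change went from -6.61 to -11.43. Dropping CD206neg replicate 2 ended the Hoxa9 call (adjusted p = 0.072). For Nfe2 the log2 fold change went from -3.66 to -4.46 when CD206pos replicate 1 was dropped. Maf, a macrophage factor, rose 1.88-fold (edgeR adjusted p = 0.032, and 0.057 with library totals), a call that ended when any 1 of the 6 libraries was dropped. Spi1, which encodes the myeloid master factor PU.1, was at 692 ± 48.3 and 767 ± 31.7 CPM (adjusted p = 0.62), and Gfi1, a repressor of stem cells and granulocyte precursors, had 2 reads in CD206pos (adjusted p = 0.11, and 0.044 with DESeq2).

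**Figure D5:**
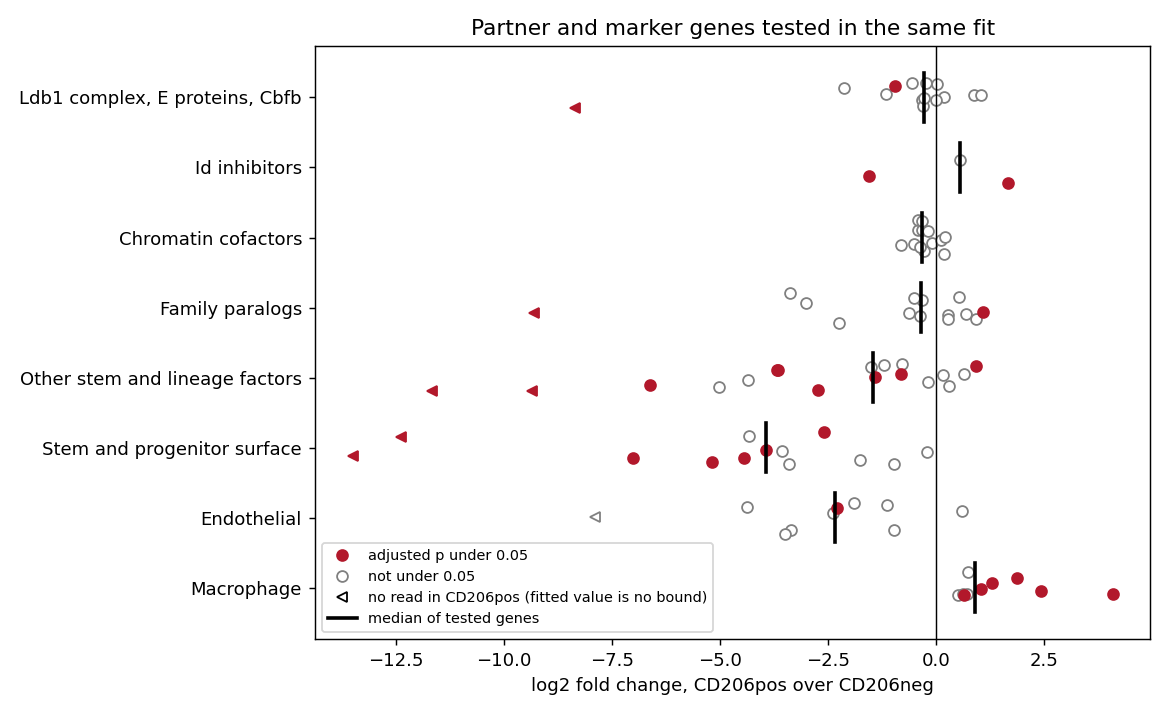
Log2 fold change (CD206pos over CD206neg, horizontal axis) of the tested genes of 8 lists of partners and markers, filled where the adjusted p was under 0.05, with triangles for genes without a read in CD206pos and a bar at the median. Genes of the Ldb1 complex, E protein and Cbfb list have a median of -0.28 and run from -8.34 (Lmo1, no read in CD206pos) to 1.03. Chromatin cofactors lie between -0.82 and 0.19, and stem and progenitor surface genes at a median of -3.94.

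Of 13 tested stem and progenitor surface genes 7 fell in edgeR and 6 did not pass (median log2 fold change -3.94). An unadjusted p under 0.05 was seen in edgeR for 11, while DESeq2 called 9 and limma-voom 7. Kit, the gene of the stem cell factor receptor, at 73.2, 102 and 73.0 CPM in CD206neg, had 0 reads in CD206pos (at least 1409-fold lower, edgeR adjusted p = 0.00042). Cd34, a surface marker of progenitors and endothelium, was 15.3-fold lower, at 584 ± 134.0 against 38.1 ± 17.2 CPM (edgeR adjusted p = 0.0014). Of 10 tested endothelial genes edgeR called 1, Tie1, which fell, and 9 did not pass (median -2.34), while 5 had an unadjusted p under 0.05, DESeq2 called 5 and limma-voom 1. Summed levels of 10 granulocyte genes ran from 1861 to 2855 CPM in CD206neg and from 17.4 to 69.7 CPM in CD206pos. All 6 tested fell in edgeR, and DESeq2 called 6 but limma-voom only 2. Of these, S100a8, S100a9 and Ms4a3 had 0 CD206pos reads and Elane had 34, so they could enter the test only if higher in CD206neg. Mpo and Prtn3 had reads in every CD206pos library. For 10 macrophage genes, 6 of which rose, the sums ran from 3396 to 4306 and from 6721 to 9675 CPM. Mrc1, whose product the cells were sorted on, is one of these 10 and of the 6, so its rise is no result. Erythroid genes summed to between 4.46 and 7.39 CPM in CD206neg and between 12.8 and 16.4 CPM in CD206pos, without overlap. Of 5 tested edgeR called 0 (2 at an unadjusted p under 0.05, 1 by DESeq2 and 1 by limma-voom). Most of each CD206pos sum was 1 gene, Epor, at 0, 0.81 and 2.03 CPM in CD206neg and 9.60, 11.7 and 10.8 CPM in CD206pos. Without overlap, Hba-x was also higher in mean (0.60 to 1.68 CPM) and Klf1 lower (1.72 to 0.077 CPM). The sum therefore does not show more erythroid RNA in general. Of 6 tested stromal and epithelial genes edgeR called 0 (1 at an unadjusted p under 0.05, 1 by DESeq2 and 0 by limma-voom). Lymphoid genes stayed at 8.63 CPM or less in sum, and the 1 tested, Il7r, fell, a call that ended when any 1 library was dropped (adjusted p up to 0.12). Of 4 tested megakaryocyte and mast cell genes, Pf4, which resident macrophages also express, rose and Cpa3, a mast cell and progenitor protease gene, fell (adjusted p = 0.055 without CD206neg replicate 2). How far these cell types account for the levels of the 10 genes was not tested.

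For the 3 genes with the highest levels per length, the most similar genes were sought among 8649 others by Pearson correlation of log2(CPM + 1) over the 6 libraries, which share litters and populations. Lyl1 was most like Utp3 (r = 0.99), Mrpl38 (r = 0.99) and Pmpcb (r = 0.99), and each of these was highest in litter 1 in both populations. Fli1 was most like Atxn1l, Pfkfb3 and Tmem268, and Lmo2 most like Orai2, Eif1ad and Crlf3 (each r = 0.99). With 6 libraries and this many genes these are descriptions only.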

How the data were processed

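RNA-seq libraries of sorted GFP-positive AGM cells were deposited as raw read counts per gene, which the authors made with featureCounts 1.5.2 on GENCODE vM14 exons, per the file headers, with no strand, multi-mapping or overlap option. STAR 2.3 and the builds mm10 and GRCm38.p5 are named per the submitters' processing notes, and for strandedness, read length and what each alignment merged the sources used here give nothing. Cells were released with collagenase (45 min, 37 degrees Celsius), per the labels' protocols. By the program's defaults reads on exons of 2 genes are dropped, and reads of an antisense gene cannot be told from those of its partner. Exon bases shared with an opposite-strand gene made up 6.26% for Myb, 0.90% for Runx1, 0.65% for Mecom, 0.22% for Lyl1 and 0 for the others.

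Symbols were matched by Ensembl identifier (51633 of 51912). Counts were tested with edgeR 4.0.16 (filterByExpr, TMM, robust quasi-likelihood F test, CD206pos against CD206neg, no litter block), with SE taken as the absolute log2 fold change over the root of F. Folds are ratios of mean CPM. For a group with 0 reads they are bounds that set 3 counts over that group, and for 1 to 3 reads they are counting ratios with exact binomial intervals. The number in each title was read as the litter. Deviations from group means correlated within litters 1, 2 and 3 at 0.089, 0.039 and 0.18. Reads carry no molecular identifiers, so intervals and floors cover counting error only. The fits were tested on simulated data. Alternatives were the litter block, scaling by RLE, by upper quartile or by library totals, testing every gene with 1 read or more, requiring 5 CPM in 3 libraries (the stricter filter), no robust estimation, DESeq2 1.42.0, limma-voom 3.58.1 with sample weights, and leaving out each library or litter. The genes and lists were chosen with earlier results of these data known. Named genes are the 10, up to 4 called genes per list and direction, 3 similar genes (at least 10 CPM) for each of the 3 highest, and a fixed set including Kit, Spi1 and Ldb1. Tcf4, Cbfa2t3, Runx2, Runx3, Mybl2, Id4, Epor, Hba-x, Klf1, S100a9, Elane and the endothelial genes other than Cdh5 and Tie1 were named after their values were seen. A gene that this rule names is not reported here.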

Additional observations from a re-analysis of the deposited data

How the results depend on the processing

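The number of calls (617 in all, 3 of the 10 factor genes) depended on the libraries. Leaving out 1 library gave 190 to 561 calls in all and 0 to 3 of the 10 genes (0 without CD206neg replicate 1 or 2, 1 without CD206pos replicate 1), and leaving out both libraries of litter 1, 2 or 3 gave 307, 3 and 153 calls and 1, 0 and 2 of the 10. Fewer libraries also mean less power. DESeq2 called 1210 genes and 5 of the 10. With the litter as a block (the replicate block) 703 genes and the same 3 factor genes (Gata2, Erg and Myb) were called, and among the other named genes only Lmo1, Gata1 and Il7r lost their calls. No alternative reversed a called gene among the 54 named genes tested. Of 27 called named genes beside the 10, 11 lost the call when 1 library was left out. Lmo1, Maf and Il7r lost it whichever of the 6 was left out, Ssbp2 for each but CD206pos replicate 3, Id1 for each but CD206pos replicate 1, Ets2 for each but CD206neg replicate 1, Cd68 without replicate 1 or 2 of CD206neg or 2 or 3 of CD206pos, Gata1 without CD206neg replicate 1 or 2 or CD206pos replicate 2, and Id2, Hoxa9 and Cpa3 without CD206neg replicate 2. Among genes not called, leaving out 1 library moved the log2 fold change across 0 for Tal1 (-0.36 to 0.26), Lyl1 (-0.27 to 0.041), Cbfb (-0.13 to 0.12), Utp3 (-0.24 to 0.051), Mrpl38 (-0.25 to 0.021) and Pmpcb (-0.20 to 0.13), and leaving out litter 3 did so for Tal1 (0.036) and Cbfb (0.18). Without division by length the family shares were 12.9% and 13.2% for Tal1 (CD206neg and CD206pos), 90.5% and 98.6% for Runx1, 75.7% for Gata2 in CD206neg, and 37.8% and 8.35% for Myb, and 4 of the 10 genes kept their rank by level in each population, since exon lengths differ. TPM and RPKM give the same shares and ranks by construction. Without CD206pos replicate 3 the ranks of 6 of 10 genes in CD206pos were kept, and without any other single library those of 8 to 10. Depth limits the lowest levels: 3 reads are 0.16 to 0.18 CPM, and Erg, Hlf, Mecom and Gata2 had 3 to 34 reads over the CD206pos libraries. Erg and Hlf did not pass the stricter filter and have no value there.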
